A study of Homo sapiens with 21 samples.

Results

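Regulators of the actin cytoskeleton were followed in HEY cells, an established human ovarian carcinoma line, that had received mir-429, which belongs to the miR-200 family of microRNAs. The 10 genes were taken from a list of names, drawn up with earlier results of these data known, out of 19775 genes with a probe set on the array, and they had 32 of its 54675 probe sets. WIPF1, WASF3, CFL2, MSN, PPM1F and FHOD1 are actin regulators described as targets of the miR-200 family, and WASL, CFL1, EZR and RDX are their paralogues or binding partners. Arrays were made from untransfected HEY cells at 0 h, from cells given a synthetic negative control miRNA at 24, 48 and 144 h, and from mir-429 recipients at those same times; each of the 7 groups has 3 arrays. The 18 transfected arrays share the lipid reagent, and all 21 share the cell line and the medium with serum. The labels name the comparison arm a synthetic miRNA, and it was taken here as the negative control of the design. The replicates are called biological, but nothing says that they came from separate cultures, so each p-value measures the spread between these samples.

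MicroRNAs of the miR-200 family pair through their seed with sites in messenger RNAs and lower the amount or the translation of those messages. They are best known for holding epithelial cells in their epithelial state by repressing the transcription factors ZEB1 and ZEB2, and several direct regulators of actin have been described among their targets. Actin itself is nucleated by the Arp2/3 complex under WASP and WAVE proteins or by formins, severed by cofilins, and tied to the plasma membrane by ezrin, radixin and moesin.

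The mature sequences below are shown because the seed, bases 2 to 8 from the 5′ end, sets which sites a miRNA can pair with; the seed is in capitals. They are from RefSeq on GRCh38.p14, where all 5 family members matched. mir-429 lies on the plus strand at chr1:1169055-1169076. It shares its seed with miR-200b-3p at chr1:1167160-1167181 and miR-200c-3p at chr12:6963742-6963764, both on the plus strand. 
hsa-miR-429: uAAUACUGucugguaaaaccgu
hsa-miR-200b-3p: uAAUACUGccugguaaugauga
hsa-miR-200c-3p: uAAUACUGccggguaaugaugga
The other 2 members, at chr1:1167916-1167937 and chr12:6964155-6964176 on the plus strand, carry the seed substitution U4C relative to mir-429, counted from the 5′ end.
hsa-miR-200a-3p: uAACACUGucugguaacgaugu
hsa-miR-141-3p: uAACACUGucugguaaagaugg

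Levels are deposited log2 values, in which a difference of 1 is a 2-fold difference, and each gene is read from its brightest probe set unless another is named. Changes are log2 differences ± SE from limma over all 21 arrays, and a gene is said to rise or fall where its Benjamini-Hochberg adjusted p over 12879 tested genes was under 0.05. All 10 members were tested. In bulk samples, fewer cells of a kind and less RNA per cell cannot be told apart.

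Array medians lay between 3.95 and 4.29. Of 10 marker genes listed for HEY cells, 6 were above the array median on all 21 arrays (KRT7, KRT8, KRT18, PAX8, WT1 and VIM). KRT19 was above the array median on 2 arrays, and MUC16, EPCAM and CDH1 on 0. No leukocyte marker passed the filter on dim genes, whereas 5 of 8 endothelial markers did: CDH5 was above the array median on all 21 arrays, KDR on 19, CLDN5 on 17, ESAM on 13 and PECAM1 on 3, against 2 for TEK, 1 for VWF and 0 for ERG. ZEB1, a well-known target of mir-429, changed by -1.29 ± 0.15 at 24 h (limma adjusted p 6.5e-06), by -1.72 ± 0.15 at 48 h (adjusted p 1.36e-07) and by -0.14 ± 0.15 at 144 h (adjusted p 0.655). The signal of 3′ over 5′ control probe sets for GAPDH and ACTB, a measure of RNA integrity and amplification, stood apart at 48 h: it averaged 7.83 on control arrays and 8.55 after mir-429 on the log2 scale, against 3.15 before transfection. Control arrays at 24 h averaged 4.21 ± 0.21 (SD, n = 3) and those of mir-429 averaged 2.87 ± 0.36, with no overlap. Its part in the results below was not tested beyond a fit with this measure as a covariate.

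At 24 h, 5 of the 10 members fell with mir-429 against control (WIPF1, PPM1F, FHOD1, CFL2 and MSN) and 3 rose (RDX, WASL and EZR). Over all tested genes, 26.6% were called at 24 h, 11.6% lower and 15% higher. The median change was -0.42 over the members, -1.28 over the 6 described targets and -0.02 over all tested genes. At 48 h, 4 members fell and RDX alone rose, where 20.6% of all tested genes were called, 11.3% lower and 9.32% higher. At 144 h no member was called (1 at an unadjusted p under 0.05, MSN), beside 5.85% of all tested genes. The arrays of mir-429 and control did not overlap for 8 members at 24 h, for 6 at 48 h and for 2 at 144 h, against 40.4%, 29% and 33.9% of all tested genes.

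**Figure D1:**
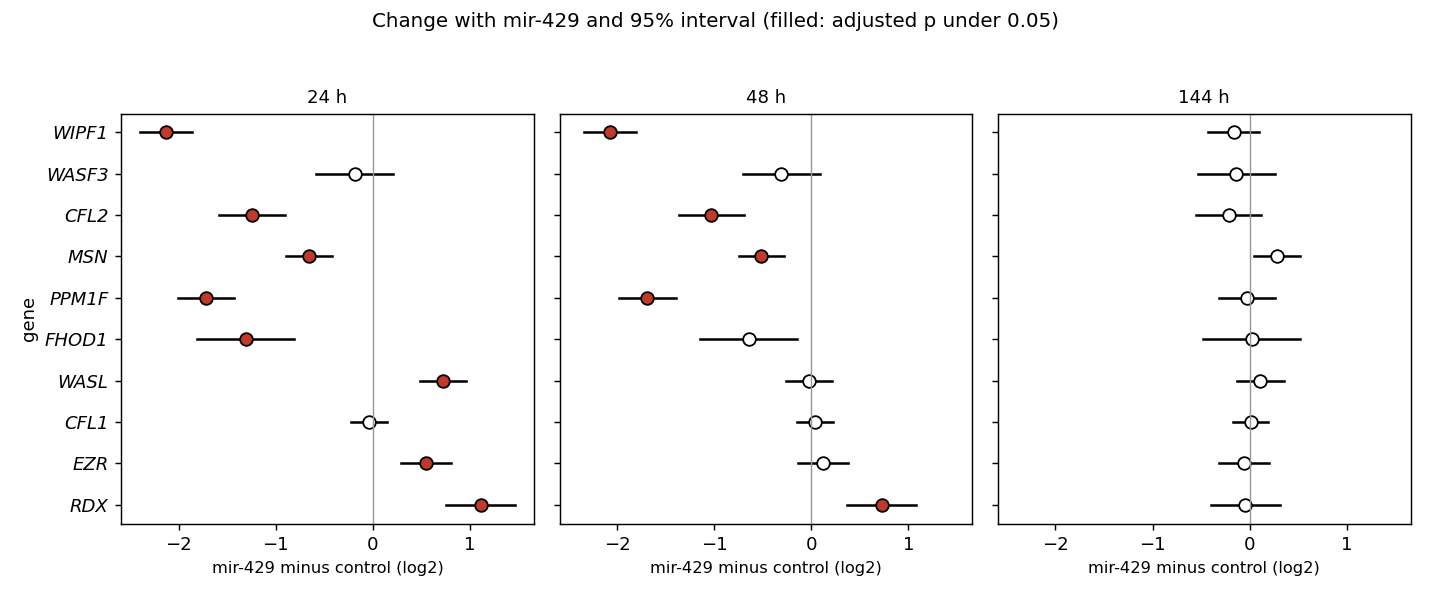
Change with mir-429 against control in log2 (x axis) for each of the 10 genes (y axis) at 24, 48 and 144 h; lines are 95% intervals and filled points passed the adjusted p threshold. WIPF1, PPM1F, CFL2 and MSN lie left of 0 at 24 and 48 h, RDX lies right of it, and every interval except that of MSN spans 0 at 144 h.

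WIPF1 encodes WIP, which binds and stabilises WASP-family proteins and actin filaments. Its level in the 3 control arrays at 24 h was 8.45, 8.44 and 8.33, and in the mir-429 arrays it was 6.64, 6.17 and 6.01. At 48 h the control arrays read 8.41, 8.58 and 8.46 and the mir-429 arrays 6.27, 6.47 and 6.49. Every mir-429 array thus lay far below every control array at both times. The change was -2.13 ± 0.13 at 24 h (limma adjusted p 6.51e-09), which left 22.8% of the control level and ranked 4 from the bottom among all tested genes. At 48 h it was -2.08 ± 0.13 (adjusted p 2.22e-09), or 23.7% of control. By 144 h the mir-429 arrays, at 8.33, 8.33 and 8.31, overlapped the control arrays at 8.55, 8.60 and 8.31, with a difference of -0.17 (95% interval -0.43 to 0.10). Both transfected arms remained under the untransfected level of 8.86, 8.95 and 8.85, at -0.40 in control (adjusted p 0.166) and -0.56 with mir-429 (adjusted p 0.00633).

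The other WIPF1 probe sets moved less. The fall at 24 h was called on 1 of its 4 probe sets, 202664_at, and at 48 h on 3 of 4. Probe set 202665_s_at changed by -0.07 ± 0.13 at 24 h (adjusted p 0.761) and by -0.57 ± 0.13 at 48 h (adjusted p 0.00676). Probe set 202663_at changed by -0.26 ± 0.20 at 24 h and by -1.03 ± 0.20 at 48 h (adjusted p 0.00178). It averaged 4.79 in untransfected cells, and at 48 h 5.95 in control and 4.92 with mir-429. The mir-429 mean at 48 h was thus not below the untransfected mean on this dim probe set. Over all 21 arrays its r with the 3′ over 5′ signal was 0.70, and the part of that signal was not tested.

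WASL encodes N-WASP, the widely expressed activator of the Arp2/3 complex to which WIP binds. At 24 h it read 9.47, 9.93 and 9.44 in control and 10.35, 10.38 and 10.29 with mir-429, with 9.89, 9.93 and 9.99 in untransfected cells. All mir-429 arrays were above all control and untransfected arrays. The rise against control was 0.72 ± 0.11 (limma adjusted p 0.000189). Against untransfected cells the mir-429 arm was higher by 0.41 (adjusted p 0.0153) and the control arm changed by -0.32 (adjusted p 0.0358). The first of these calls was lost without mir-429 24 h replicate 2 (adjusted p 0.0568) or untransfected replicate 1 (adjusted p 0.0524), and the other in 5 of 6 such fits. At 48 h WASL differed from control by -0.02 (95% interval -0.26 to 0.22) and at 144 h by 0.11 (-0.13 to 0.35). Its other tested probe sets, 205809_s_at and 230340_s_at, gave 0.25 ± 0.49 and 0.10 ± 0.26 at 24 h, neither called, and with the mean of all WASL probe sets the change at 24 h was 0.28 (adjusted p 0.329).

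WASF3 encodes WAVE3, which activates the Arp2/3 complex downstream of Rac and is linked to invasion of carcinoma cells. Its mir-429 arrays at 24 h read 8.59, 8.23 and 8.12 and its control arrays 8.48, 8.83 and 8.19. The groups overlapped, and the difference of -0.19 (95% interval -0.58 to 0.21, limma adjusted p 0.509) was not called. At 48 h it was -0.31 (-0.70 to 0.09) and at 144 h -0.14 (-0.54 to 0.26). Both arms at 24 h lay below untransfected cells at 9.61, 10.03 and 9.97: the control arm changed by -1.37 (adjusted p 3.45e-05) and the mir-429 arm by -1.56 (adjusted p 9.78e-06). WASF3 was thus the described target without a called difference between the transfected arms at any time, and its 24 h fall was shared by cells given the control miRNA.

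**Figure D2:**
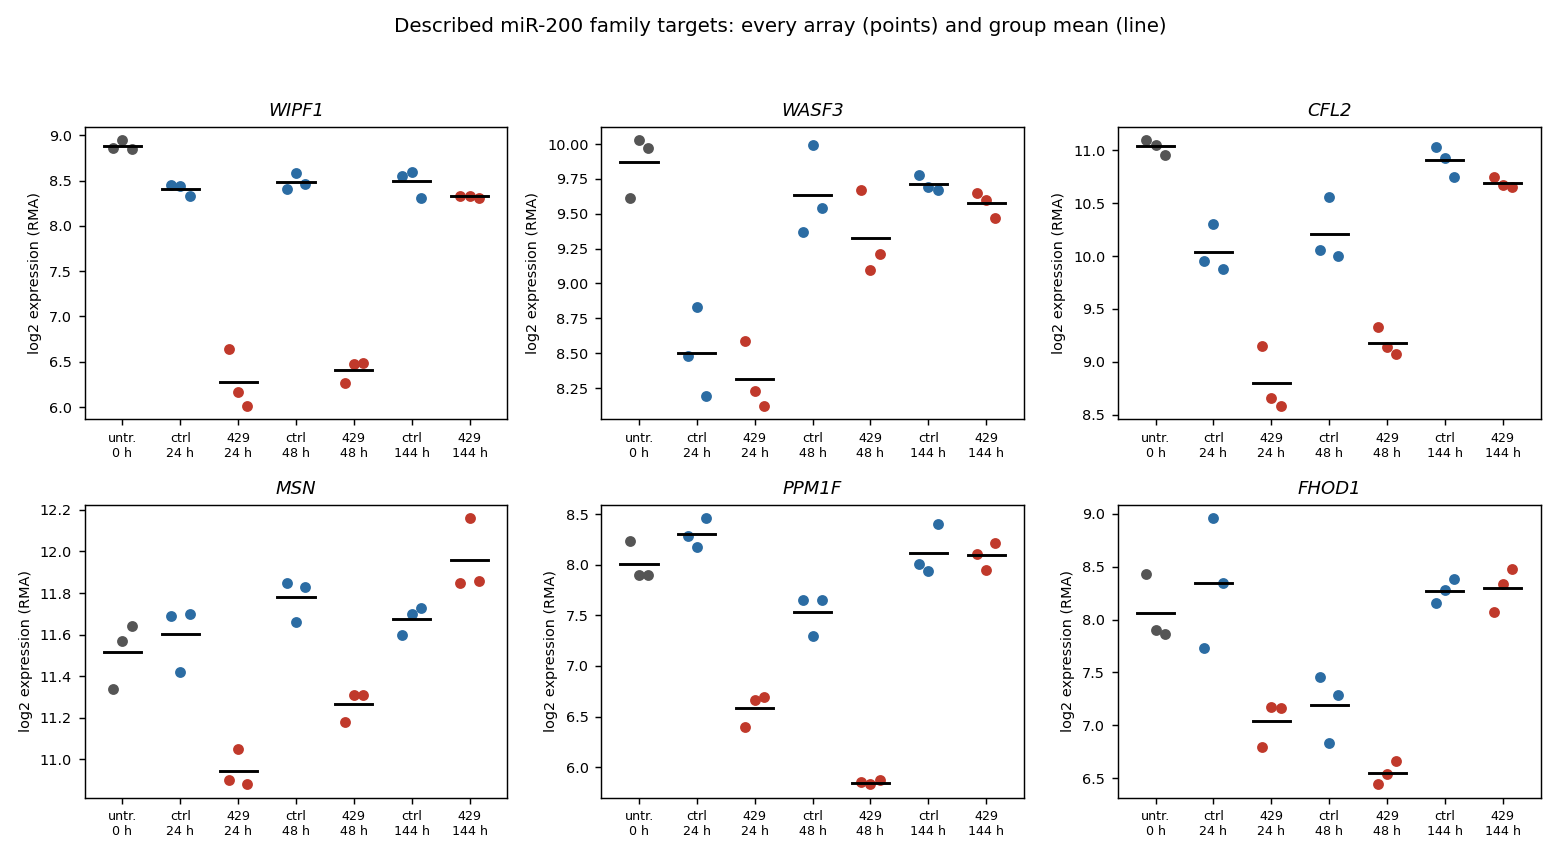
Log2 expression (y axis) of the 6 described targets in every array (points) by group (x axis: untransfected, control and mir-429 at each time), with the group mean as a line. The mir-429 arrays at 24 and 48 h lie below the control arrays for WIPF1, CFL2, MSN, PPM1F and FHOD1, while those of WASF3 overlap them; the y axes do not start at 0.

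CFL2 encodes the muscle-type cofilin, which severs actin filaments and is also made outside muscle. At 24 h it read 9.95, 10.30 and 9.88 in control arrays and 9.15, 8.66 and 8.58 with mir-429. At 48 h the values were 10.06, 10.56 and 10.00 in control and 9.33, 9.14 and 9.07 with mir-429. Every mir-429 array was lower than every control array at these times. The fall was -1.24 ± 0.16 at 24 h (limma adjusted p 2.62e-05), or 42.2% of control, and -1.03 ± 0.16 at 48 h (adjusted p 0.000148), or 49% of control. At 144 h the difference was -0.21 (95% interval -0.55 to 0.12). Untransfected cells stood higher than both arms at 24 h, at 11.10, 11.05 and 10.96, so that the control arm itself had 50.1% of their level (adjusted p 0.000141), and the mir-429 arm differed from them by -2.24 (adjusted p 2.21e-08).

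The fall of CFL2 with mir-429 was larger on its other probe sets. At 24 h, 224663_s_at read 10.36, 10.18 and 10.30 in control and 8.29, 7.82 and 7.92 with mir-429, a change of -2.28 ± 0.12 (limma adjusted p 3.2e-09). At 48 h this probe set changed by -1.91 ± 0.12 (adjusted p 7.24e-09). The third, 233496_s_at, changed by -1.84 ± 0.28 at 24 h and by -1.54 ± 0.28 at 48 h (adjusted p 0.000239 and 0.00105). All 3 probe sets thus fell at both times, and the brightest had the smallest change. The shortfall of control arrays against untransfected cells was not seen on 224663_s_at, which averaged 10.05 in untransfected and 10.28 in control cells at 24 h.

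CFL1, the cofilin of most non-muscle cells, was the brightest member and the flattest. Its group means ran from 13.28 to 13.45 over the 7 groups. The difference between mir-429 and control was -0.04 at 24 h (95% interval -0.22 to 0.15), 0.04 at 48 h (-0.14 to 0.22) and 0.01 at 144 h (-0.17 to 0.19). Other CFL1 probe sets did not follow it. Probe set 1555730_a_at read 8.13, 8.56 and 8.12 in control and 9.17, 9.46 and 9.02 with mir-429 at 24 h, a rise of 0.95 ± 0.29 (limma adjusted p 0.0326). With the 3′ over 5′ signal as covariate this difference was -0.020 (adjusted p 0.987), and its adjusted p reached 0.12 when single arrays were left out, with 4 of 6 such fits losing the call. The dim probe set 236792_at was lower at 48 h (adjusted p 0.000411), with a log2 change of at most -0.82, since its mir-429 mean lay below the array medians.

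Moesin, ezrin and radixin are close relatives that link actin filaments to membrane proteins once phosphorylated. MSN, which encodes moesin, read 11.69, 11.42 and 11.70 in control and 10.90, 11.05 and 10.88 with mir-429 at 24 h. At 48 h it read 11.85, 11.66 and 11.83 in control and 11.18, 11.31 and 11.31 with mir-429. The groups were separate at both times. The falls were -0.66 ± 0.11 (limma adjusted p 0.000357) and -0.51 ± 0.11 (adjusted p 0.00292), which left 63.4% and 70% of control. With the mean of both MSN probe sets, of which 233749_at was above the array median on 1 array, the 48 h call was lost (-0.27, adjusted p 0.48). At 144 h the mir-429 arrays, at 11.85, 12.16 and 11.86, were above the control arrays at 11.60, 11.70 and 11.73, a difference of 0.28 ± 0.11 that was not called (adjusted p 0.159). Against untransfected cells it was 0.44 higher at that time (adjusted p 0.0121), a call lost without mir-429 144 h replicate 2 (0.34, adjusted p 0.0736) or untransfected replicate 1 (0.35, adjusted p 0.0587).

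RDX, which encodes radixin, was the member with the largest rise against control. At 24 h its control arrays read 10.43, 10.55 and 9.84 and its mir-429 arrays 11.63, 11.30 and 11.22. At 48 h they read 10.81, 11.28 and 10.79 in control and 11.84, 11.56 and 11.65 with mir-429. All mir-429 arrays were higher, by 1.11 ± 0.17 at 24 h (limma adjusted p 0.000135) and by 0.72 ± 0.17 at 48 h (adjusted p 0.00497). The 48 h call was lost when only the arrays compared were fitted (adjusted p 0.0506). On the brightest probe set neither arm was above untransfected cells, at 11.88, 12.06 and 11.86. Against these, the control arm at 24 h changed by -1.66 (adjusted p 1.79e-06) and the mir-429 arm by -0.55 (adjusted p 0.0239). The second of these calls was lost without mir-429 24 h replicate 2 (adjusted p 0.0862) or 3 (0.105) or untransfected replicate 2 (0.092). On this probe set the mir-429 arm at 24 h thus lay between the control arm and untransfected cells. That order was not shared by 212398_at, which averaged 7.38 in untransfected cells, 5.56 and 7.49 in control cells at 24 and 48 h, and 7.52 and 8.64 with mir-429. With that probe set, the one of largest interquartile range, mir-429 minus untransfected at 48 h was 1.26 (adjusted p 0.00998), and with the mean of RDX probe sets it was 0.52 (adjusted p 0.016), against -0.25 (adjusted p 0.218) on the brightest. Probe set 212398_at rose more steeply against control at 24 h, by 1.96 ± 0.39 (adjusted p 0.00235), and 244739_at changed by 0.02 ± 0.33.

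EZR, which encodes ezrin, read 12.08, 12.35 and 11.79 in control and 12.74, 12.57 and 12.54 with mir-429 at 24 h. The groups did not overlap, and the rise was 0.54 ± 0.12 (limma adjusted p 0.00317). It was 0.12 at 48 h (95% interval -0.14 to 0.37) and -0.06 at 144 h (-0.32 to 0.20). A covariate for the 3′ over 5′ signal left the 24 h value at 0.53, no longer called (adjusted p 0.127). Untransfected cells read 12.39, 12.45 and 12.35. Against them the control arm at 24 h changed by -0.32, and the mir-429 arm was higher by 0.22, which was not called. None of the other EZR probe sets rose at 24 h. Those numbered 217230_at, 217234_s_at and 208621_s_at gave -0.69 ± 0.40, -0.73 ± 0.38 and -0.70 ± 0.54.

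These 3 EZR probe sets rose at 48 h in both transfected arms while the brightest, 208623_s_at, stayed level. Probe set 217230_at averaged 7.03 in untransfected cells, 10.59 after the control miRNA and 11.03 after mir-429 at the 48 h point, and by 144 h it was back at 7.91 and 8.06. Probe set 208623_s_at averaged 12.40, 12.32 and 12.43 in the same untransfected and 48 h groups. Such a rise was not particular to EZR. In those groups WASL probe set 205809_s_at averaged 5.43, 7.38 and 7.75, and WASL 230340_s_at averaged 5.09, 6.86 and 7.16. RDX probe set 204969_s_at averaged 4.09, 5.31 and 5.63. The 3′ over 5′ signal of the control genes was high in the same 6 arrays. Over all 21 arrays, which share groups and times, r with that signal was 0.93 for 217230_at, 0.93 for 217234_s_at and 0.89 for 208621_s_at, values that 0.478%, 0.416% and 2.22% of the 30553 tested probe sets reached. Among the 15 arrays of other times r was 0.36, 0.40 and 0.33, which 21.5%, 18.5% and 24.1% reached. For WASL 230340_s_at, WASL 205809_s_at and RDX 204969_s_at, r over all 21 arrays was 0.88, 0.81 and 0.76. Of the tested probe sets, 2.74%, 6.64% and 10% reached these values. Among the 15 arrays of other times r was -0.10, -0.18 and -0.64 for these. Over those 15 arrays, the brightest probe sets gave 0.69 for FHOD1, 0.68 for PPM1F, 0.56 for CFL1, 0.42 for WIPF1, 0.36 for MSN and 0.25 for CFL2. They gave -0.10 for WASF3, -0.62 for RDX, -0.69 for WASL and -0.71 for EZR. Of the tested probe sets, 3.74% reached the r of FHOD1 and 96.3% that of EZR. The 24 h arms are among these arrays and differ in the signal, whose part was not tested. At 24 h the 217230_at values of control arrays were spread, at 8.48, 6.77 and 9.18, with replicate 2 the lowest.

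**Figure D3:**
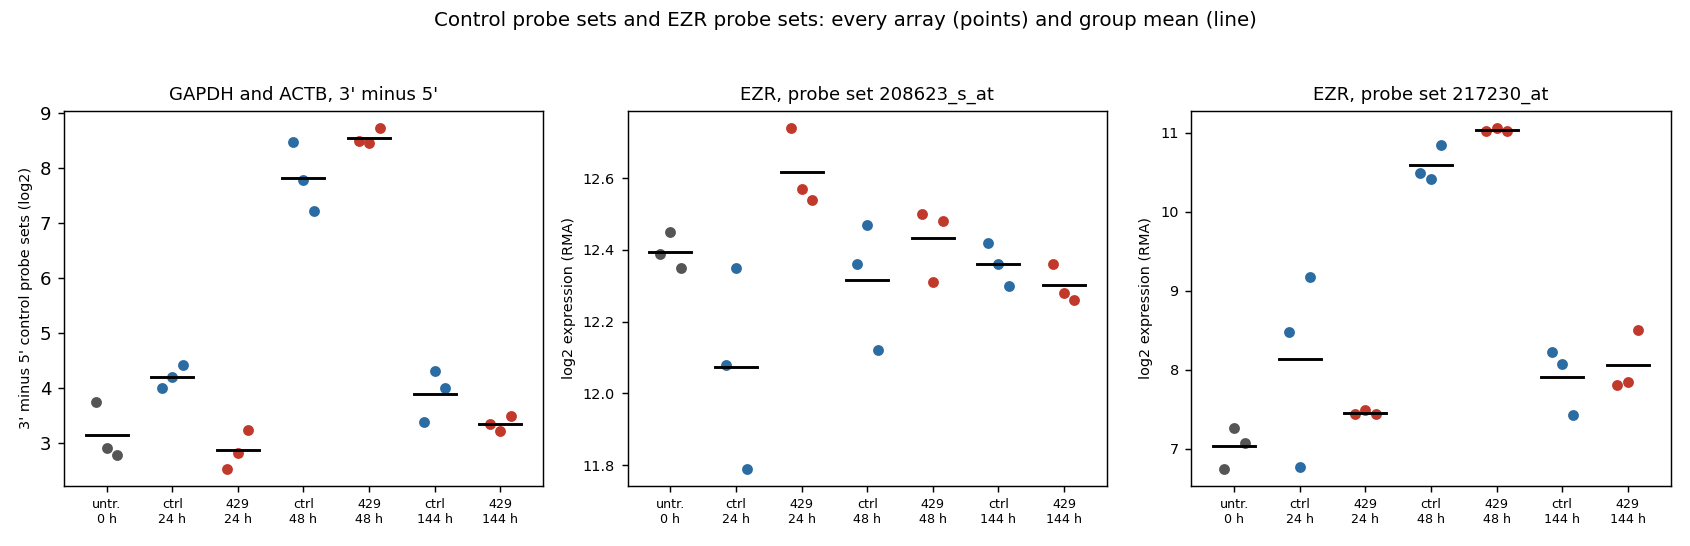
Left, log2 difference of 3′ and 5′ control probe sets (mean of GAPDH and ACTB) in every array by group; middle and right, log2 expression of EZR probe sets 208623_s_at and 217230_at, with group means as lines. The 48 h arrays are highest on the left and right panels, at group means of 7.83 and 8.55, and of 10.59 and 11.03, whereas 208623_s_at stays between 11.79 and 12.74; the y axes differ.

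**Figure D4:**
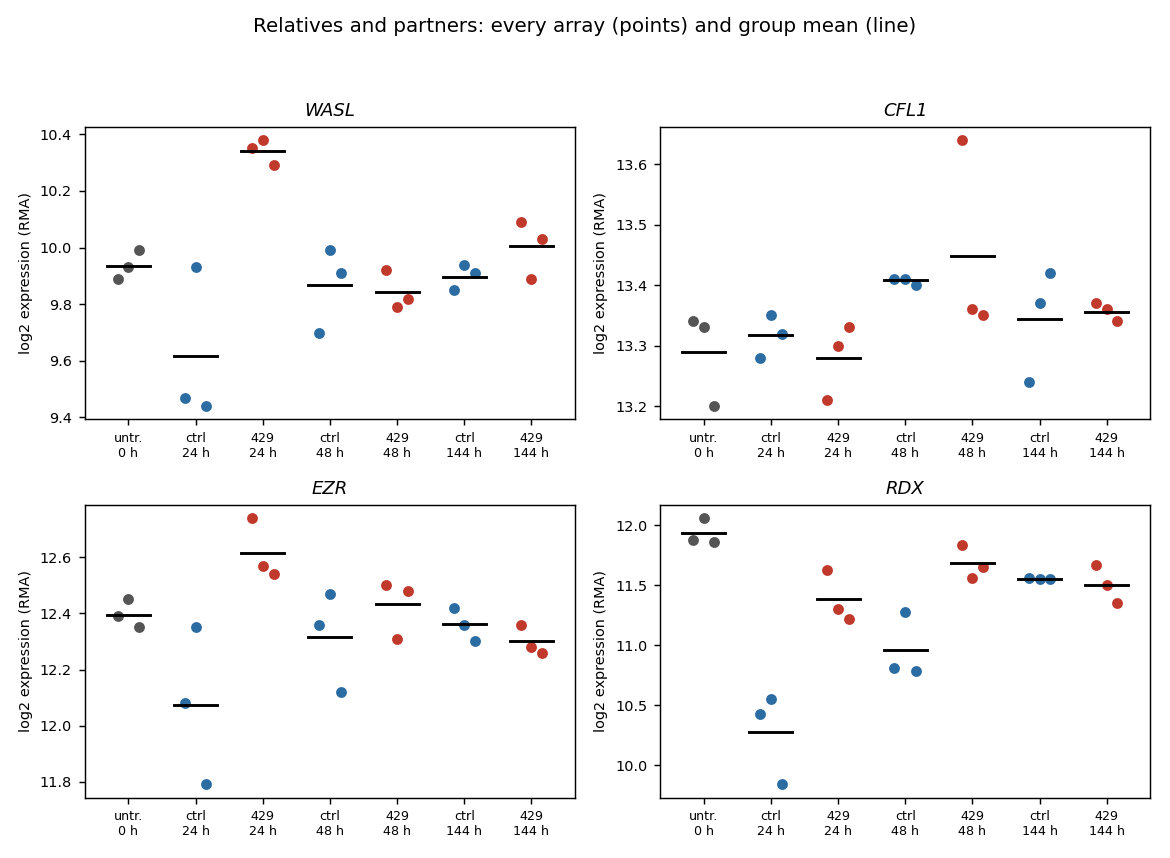
Log2 expression (y axis) of WASL, CFL1, EZR and RDX in every array (points) by group (x axis), with the group mean as a line. RDX control arrays at 24 h, at 9.84 to 10.55, are the lowest of that gene, and CFL1 lies within 13.20 to 13.64 throughout; the y axes do not start at 0.

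PPM1F encodes a PP2C-type phosphatase that dephosphorylates the kinase PAK, a regulator of actin downstream of Rac and Cdc42. At 24 h it read 8.28, 8.18 and 8.46 in control and 6.40, 6.66 and 6.69 with mir-429. At 48 h it read 7.65, 7.30 and 7.65 in control and 5.85, 5.83 and 5.87 with mir-429. The arms were far apart at both times. The falls were -1.72 ± 0.14 (limma adjusted p 1.46e-07), or 30.3% of control, and -1.69 ± 0.14 (adjusted p 8.62e-08), or 31% of control. At 144 h PPM1F differed by -0.03 (95% interval -0.32 to 0.26). Its second bright probe set, 37384_at, fell by 1.81 at 24 h and by 1.18 at 48 h (adjusted p 9.65e-08 and 6.27e-06). The other pair, 1555091_at and 1555470_a_at, lay near the array median and was not called.

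FHOD1 encodes a formin that binds and bundles actin filaments. It has a single named probe set, which at 24 h read 7.73, 8.96 and 8.35 in control and 6.79, 7.17 and 7.16 with mir-429. The control arrays were widely spread, yet all lay above the mir-429 arrays, and the fall was -1.31 ± 0.24 (limma adjusted p 0.00062). At 48 h it read 7.46, 6.83 and 7.29 in control and 6.44, 6.54 and 6.66 with mir-429, separate groups with a difference of -0.64 ± 0.24 that was not called (adjusted p 0.0641). Without control 48 h replicate 2 this became -0.82 (adjusted p 0.0294). A fit with the 3′ over 5′ signal as covariate turned the order of the times: -0.80 at 24 h (adjusted p 0.192) and -0.92 at 48 h (adjusted p 0.0192). At 144 h it was 0.02 (95% interval -0.48 to 0.52).

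The other 6 members called at 24 h kept their call with that covariate: WIPF1 at -2.31, PPM1F at -1.48, CFL2 at -1.38, MSN at -0.74, RDX at 0.90 (limma adjusted p 0.0481) and WASL at 0.63 (adjusted p 0.0459). The fit gave each of the 7 groups its own mean, so the slope of the covariate came only from the spread within groups, pooled over all. The arms did not overlap in that signal at 24 h. Calls kept or lost with it at 24 h thus cannot tell the signal and the arm apart. At the level of probe sets, 30 of the 32 were tested. At 24 h 8 of them were lower and 5 higher, that is 26.7% and 16.7%, beside 7.69% and 10.6% of the 30553 tested. At 48 h 10 were lower and 1 higher, beside 8.27% and 7.01%, and at 144 h none was called, beside 4.29% of all tested.

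**Figure D5:**
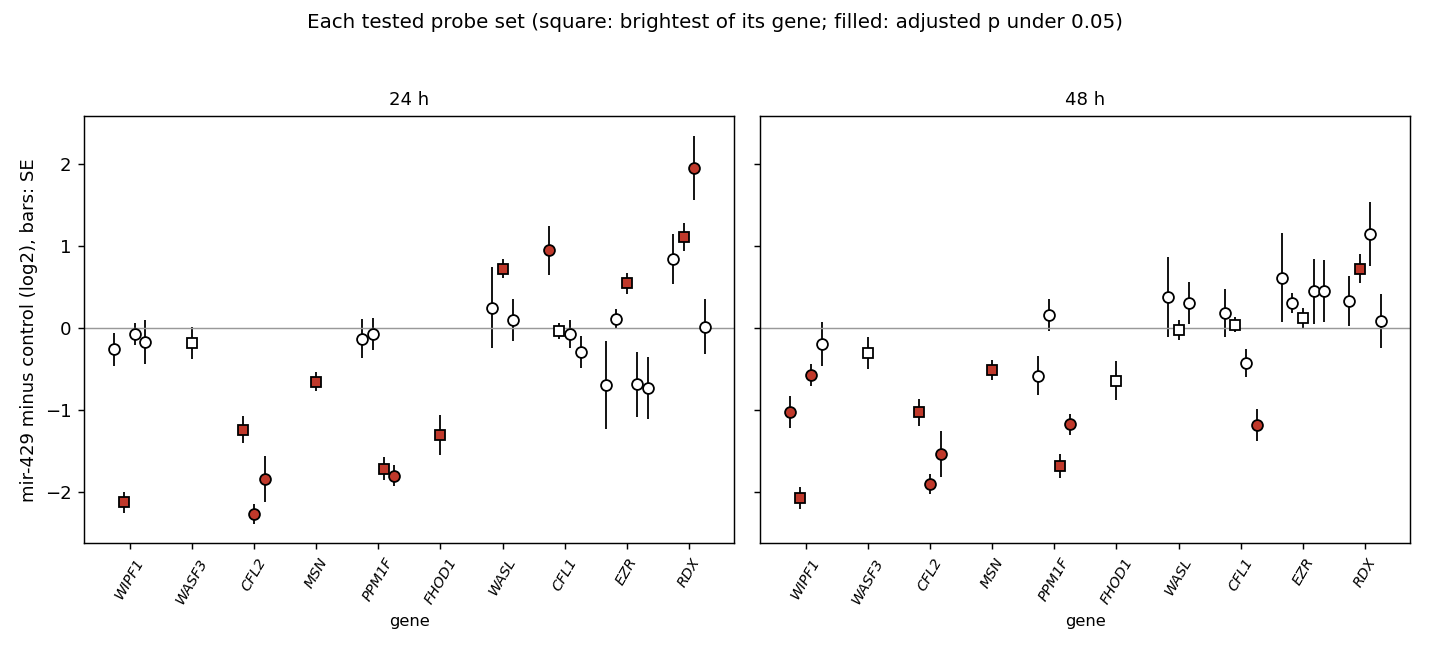
Change with mir-429 against control in log2 (y axis, bars are SE) for each of the 30 tested probe sets by gene (x axis) at 24 and 48 h; squares are the brightest probe set of a gene and filled symbols passed the adjusted p threshold. All 3 CFL2 probe sets are filled below 0 at both times, while 1 of 4 WIPF1 probe sets is filled at 24 h and 3 of 4 at 48 h.

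The size of the mir-429 effect itself was compared between times. From 24 to 48 h it changed for 1 member, WASL, by -0.75 ± 0.16 (limma adjusted p 0.0174), beside 4.89% of all tested genes. From 48 to 144 h it changed for 5 members, beside 9.47% of all tested genes: WIPF1 by 1.91 ± 0.18 (adjusted p 2.38e-06), PPM1F by 1.66 ± 0.20 (adjusted p 2.83e-05), MSN by 0.80 ± 0.16 (adjusted p 0.0032), CFL2 by 0.81 ± 0.23 (adjusted p 0.0293) and RDX by -0.77 ± 0.24 (adjusted p 0.0498). The effects at 144 h were nearer to 0 than at 48 h for all 5, and those of MSN (0.28) and RDX (-0.05) had the opposite sign without being called. Dropping control replicate 3 of 24 h ended the WASL call (-0.66, adjusted p 0.0537), as did the 3′ over 5′ covariate (-0.60, adjusted p 0.6) and a fit of only the arrays compared (adjusted p 0.117). With that covariate the calls of CFL2 (0.68, adjusted p 0.175) and RDX (-0.97, adjusted p 0.0611) from 48 to 144 h were lost too. Averaged over the 3 times, 5 members were lower and 3 higher with mir-429, beside 28% of all tested genes called, 15.4% lower and 12.6% higher. Of these, EZR at 0.20 (adjusted p 0.0418) lost its call in 12 of 18 fits that left out 1 array.

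Untransfected cells served as a second reference, and both sets of comparisons with them share the same 3 arrays. In control cells 6 members were lower at 24 h and none higher, beside 38% of all tested genes called and 19.8% called lower. They were CFL2, RDX, WASF3, WIPF1, EZR and WASL, the EZR call (-0.32, limma adjusted p 0.0463) being lost in 5 of 6 fits that left out 1 array. With the mean of probe sets EZR was called higher instead (0.70, adjusted p 0.0328), as with its probe set of largest interquartile range (1.11, adjusted p 0.0426). On the CFL2 probe set of largest range the value was 0.23 (adjusted p 0.17). With the 3′ over 5′ covariate, EZR, WASL and WIPF1 lost their calls (adjusted p 0.214, 0.303 and 0.165), and with only the arrays compared EZR and WASL did (adjusted p 0.132 and 0.13). At 48 h 5 were lower (CFL2, FHOD1, PPM1F, RDX and WIPF1), beside 54.5% called and 36.1% lower. The 3′ over 5′ signal of these arrays averaged 7.83 against 3.15 in untransfected cells. With it as covariate all 5 calls were lost: CFL2 at -0.35 (adjusted p 0.82), FHOD1 at -2.64 (0.133), PPM1F at -1.32 (0.202), RDX at -0.24 (0.889) and WIPF1 at 0.21 (0.866). The covariate nearly coincides with time here, and the SE were wide, at 0.87 for FHOD1 and 0.52 for PPM1F. These losses therefore cannot tell the signal and the time apart. Dropping control replicate 2 of 48 h (adjusted p 0.051) or untransfected replicate 1 (adjusted p 0.0545) ended the PPM1F call, which stood at -0.47. At 144 h no member was called (2 at an unadjusted p under 0.05, RDX and WIPF1), beside 0.474%; with only the arrays compared RDX was (-0.38, adjusted p 0.0424). With mir-429, all 6 described targets and RDX were lower than in untransfected cells at 24 h and WASL was higher, beside 23% of all tested genes called, 11.3% lower and 11.7% higher. At 48 h 5 described targets were lower, beside 56.7% called and 37.5% lower; MSN, at -0.25, was not called (adjusted p 0.0624). The WASF3 call among them (-0.55, adjusted p 0.0194) was lost when any of mir-429 48 h replicates 2 or 3 or untransfected replicates 2 or 3 was left out. With the 3′ over 5′ covariate, at 8.55 in these arrays, PPM1F kept its call (adjusted p 0.0369), while WIPF1 at -1.78 (0.138), CFL2 at -1.30 (0.38) and FHOD1 at -3.56 (0.108) lost theirs and WASF3 was 1.08 (0.5). These values carry the same limit, since the covariate again nearly coincides with time. At 144 h WIPF1 was lower and MSN higher, beside 18.9% called, 12.3% lower and 6.62% higher; with only the arrays compared CFL2 (-0.35, adjusted p 0.022) and RDX (-0.43, adjusted p 0.0296) were lower too.

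Described targets were set against their relatives within each array, which cancels what moves both alike; the level of the difference has no meaning of its own, since it comes from different probes. The exact two-sided permutation test shuffled arms within each time (8000 arrangements, smallest p 0.00025), and p was adjusted over these 4 pairs, which were chosen with earlier results known. The mean effect over the times on WIPF1 minus WASL was -1.73 (exact permutation p 5e-04, adjusted 0.001). On CFL2 minus CFL1 it was -0.83 (exact permutation p 5e-04, adjusted 0.001). On MSN minus RDX it was -0.89 (exact permutation p 0.00725, adjusted 0.00967) and on MSN minus EZR -0.50 (exact permutation p 0.0288, adjusted 0.0288). At 24, 48 and 144 h the effect on WIPF1 minus WASL was -2.86, -2.05 and -0.27. For CFL2 minus CFL1 the values were -1.21, -1.07 and -0.23. For MSN minus RDX they were -1.77, -1.24 and 0.33, with the sign turned at 144 h. The difference of MSN and EZR likewise ran from -1.20 at 24 h through -0.63 at 48 h to 0.34 at 144 h. It depended on the probe set and on 1 array: the mean of probe sets gave -0.38 (exact permutation, adjusted p 0.18), and dropping replicate 1 of the 24 h mir-429 arrays gave -0.47 (adjusted p 0.0525). With replicate numbers as blocks, MSN minus EZR and MSN minus RDX were not under 0.05 (exact permutation, adjusted p 0.0898 and 0.0573).

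The wider actin machinery was read from 7 lists of genes with 117 tested members, none of them among the 10. At 24 h, 17 rose and 12 fell, or 24.8%, beside the 26.6% of all tested genes; the median was 0.01. At 48 h, 11 rose and 8 fell, or 16.2%, beside 20.6%, with a median of -0.03. At 144 h 2 rose and 4 fell, or 5.13%, beside 5.85%. The shares of the lists together were thus close to the background at each time. Among the lists reported singly below, the share called at 24 h ran from 5.26% (cofilin cycle, 19 genes) to 41.7% (formins, 12 genes). At 48 h the same lists had 10.5% and 33.3%, again the lowest and the highest.

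Among the partners of WASP, WAVE and WIP, 2 rose and 2 fell of 21 at 24 h, and 3 rose and 1 fell at 48 h. At 24 h JMY, which nucleates actin with and without the Arp2/3 complex, rose by 1.07 ± 0.21 (limma adjusted p 0.00101), and ABI3, a protein of the WAVE complex, changed by -0.81 ± 0.13 (adjusted p 0.000151). At 48 h FNBP1, which bends membranes and recruits N-WASP, rose by 0.54 ± 0.11 (adjusted p 0.00139) and CYFIP1, a WAVE complex subunit, changed by -0.34 ± 0.09 (adjusted p 0.00815). Of 17 genes of the Arp2/3 complex and its modulators, 2 rose and 2 fell at 24 h. The paralogous subunits ARPC5 and ARPC5L went opposite ways, at 0.87 ± 0.15 and -0.68 ± 0.17 (adjusted p 0.000396 and 0.00691). At 48 h 2 rose and 1 fell, with the subunit ARPC4 at 1.56 ± 0.16 (adjusted p 2.1e-06) and GMFG, a debranching factor, at least 1.72-fold higher (adjusted p 0.000141), its control arrays being dim. Over the 17 genes, control minus untransfected at 48 h ran from -2.31 to 0.92. For single genes of the lists, other probe sets and the comparison with untransfected cells are not given here.

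In the cofilin cycle 1 of 19 genes rose at 24 h and none fell: CAPZA1, a subunit of capping protein, by 0.32 ± 0.09 (limma adjusted p 0.0128). At 48 h 2 rose, LIMK2, a kinase that inactivates cofilin, by 0.59 ± 0.12 (adjusted p 0.00128) and SSH3, of the slingshot phosphatases, by 0.43 ± 0.12 (adjusted p 0.0193). Of 11 genes of the linkage through ezrin, radixin and moesin, 1 rose and 3 fell at 24 h and 1 rose and 1 fell at 48 h. The membrane protein PODXL rose by 0.47 ± 0.10 at 24 h (adjusted p 0.00203), and STK10, which phosphorylates these linkers, changed by -0.58 ± 0.15 (adjusted p 0.00783). At 48 h NF2, which encodes the related protein merlin, rose by 0.87 ± 0.17 (adjusted p 0.00127) and the kinase SLK changed by -0.40 ± 0.09 (adjusted p 0.0048).

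Of 12 other formins, 3 rose and 2 fell at 24 h, and 1 rose and 3 fell at 48 h. DAAM1 rose by 1.64 ± 0.29 and DIAPH3 by 0.62 ± 0.14 at 24 h (limma adjusted p 0.000556 and 0.00268), so that FHOD1 and DAAM1 had opposite directions. At 48 h DIAPH2 changed by -0.70 ± 0.08 (adjusted p 6.13e-06) and DIAPH1 by 0.54 ± 0.12 (adjusted p 0.00343). Of 20 genes of PAK, its partner PIX and the PP2C phosphatases, 5 rose and 2 fell at 24 h and 2 rose and 2 fell at 48 h. PPM1K, a mitochondrial phosphatase of the same class as PPM1F, rose by 1.48 ± 0.17 at 24 h and by 0.84 ± 0.17 at 48 h (adjusted p 8.64e-06 and 0.00172). GIT2, a scaffold that binds PIX, changed by -0.81 ± 0.10 and by -0.94 ± 0.10 (adjusted p 1.41e-05 and 1.6e-06).

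For the 3 members with the largest average effect, the genes most alike over the 21 arrays were named by Pearson's r, a description in which arrays share groups and times. WIPF1 was followed most closely by FEZ2 (r = 0.977), POGLUT2 (0.972) and HIPK3 (0.969). PPM1F was followed by PANX1 (0.964), OTULIN (0.96) and CHST11 (0.955). CFL2 was followed by POGLUT2 (0.952), FEZ2 (0.946) and AP1S2 (0.946). With mir-429 at 24 h, PANX1 changed by -2.21, POGLUT2 by -1.56 and FEZ2 by -1.09 against control cells.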

How the data were processed

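The deposited table held log2 expression values per probe set, which the authors summarised by RMA, as the submitters' processing notes record; its version is not given in the sources used here. Per the labels' protocols, a 3′-based kit amplified the RNA and added biotin. No further scaling was applied. GEO's platform annotation gave 1 symbol to 41097 of 54675 probe sets; those with several were not named. Symbols were updated through Entrez identifiers with RefSeq (GRCh38.p14), which matched 99.9%. A gene was read from its brightest probe set and tested where 3 or more arrays had it above their median; 12879 genes passed and 6896 did not. No scan date or batch is given.

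Tests were two-sided, by limma 3.58.1 in R 4.3.3 (lmFit, eBayes), with 7 group means, 14 residual and 3.93 prior degrees of freedom. The SE pools the spread of all groups, which was unequal: within a group, 2 arrays differed with an SD that ran from 0.17 in untransfected to 0.47 in control cells at 48 h. Intervals cover 95%. The script was tested on simulated data. The number of arrays limits the precision.

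The members and lists were chosen with earlier results of these data known. Of the 7 lists, 1 is not reported here on its own and enters only their joint counts. Named are all members with their probe sets, ZEB1, per list the 2 genes with the smallest p that were called and did not overlap at 24 h and at 48 h, and the 3 genes most alike to the 3 members with the largest average effect. The alternatives were other scalings, probe set choices, filters, weights, a 3′ to 5′ covariate, the replicate block, the arrays compared alone, fits without the 48 h arrays and fits without single arrays. Array weights estimated gene by gene were added after the data were seen, because the default algorithm stopped before converging.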

Additional observations from a re-analysis of the deposited data

Results flagged for a closer look

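These results stood out because the effect of mir-429 differed between times by a test of the difference itself (limma, n = 3 per group). From 24 to 48 h the WASL effect changed by -0.75 (adjusted p 0.0174), from 0.72 to -0.02. That call was lost with the 3′ to 5′ covariate (-0.60, adjusted p 0.6), with only the arrays compared (adjusted p 0.117) and on dropping replicate 3 of the 24 h controls (-0.66, adjusted p 0.0537), and the value was 0.13 on the WASL probe set of largest interquartile range. From 48 to 144 h the WIPF1 effect changed by 1.91 (adjusted p 2.38e-06) and the PPM1F effect by 1.66 (adjusted p 2.83e-05), and both calls held in all 12 fits that left out 1 array. The MSN effect changed by 0.80 (adjusted p 0.0032), from -0.51 to 0.28; with the mean of its probe sets it was 0.34 (adjusted p 0.602). The CFL2 effect changed by 0.81 (adjusted p 0.0293). That call was lost on dropping replicate 2 of the 48 h controls, 2 or 3 of the 144 h controls, 2 or 3 of mir-429 at 48 h, or 1 or 2 of mir-429 at 144 h, with adjusted p up to 0.0784, and with the 3′ to 5′ covariate (0.68, adjusted p 0.175). The RDX effect changed by -0.77 (adjusted p 0.0498), and the call was lost in 11 of 12 such fits, the exception being the fit without control 48 h replicate 2. It was lost with the covariate as well (-0.97, adjusted p 0.0611). No sample was tested for standing apart within a group, since groups held 3 arrays.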

How the results depend on the processing

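The falls of WIPF1, PPM1F and CFL2 at 24 and 48 h kept direction and call under every alternative run, and none of the comparison-level results reversed. For WIPF1 and PPM1F the probe set of largest interquartile range was also the brightest, so that choice could not differ. Among the WIPF1 probe sets taken singly, the 24 h fall was called on 202664_at alone. For mir-429 minus control at 144 h no member was called, except MSN under default array weights (1 member higher). Replicate numbers gave no steady sign of pairing. Same-numbered mir-429 and control arrays deviated with r of 0.28, 0.09 and 0.18 at 24 h, against -0.29 to 0.10 for unlike numbers. At 48 h r was -0.13, -0.08 and 0.09 against -0.15 to 0.22. At 144 h it was 0.20, -0.06 and -0.04 against -0.17 to 0.21. Same-numbered arrays were thus mostly more alike at 24 h, and the replicate block served as an alternative. With it, MSN minus EZR stayed at -0.50 and MSN minus RDX at -0.89, with exact permutation adjusted p of 0.0898 and 0.0573; it changed no call of a member. MSN minus EZR was also lost with the mean of probe sets (-0.38), with the probe set of largest interquartile range (-0.26), and in 1 fit that left out an array (-0.47; range -0.57 to -0.43).

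Members counted higher moved from 3 to 1 at 24 h and on average with the mean of probe sets, and from 1 to 0 at 48 h with only the arrays compared or with the probe set of largest interquartile range. These 2 probe set choices also turned members, since they bring in the other probe sets; in order, the values are for the mean and for the largest range. CFL1 became -0.34 and -1.42 for control minus untransfected at 48 h, and -0.69 and -1.24 for mir-429 minus untransfected at 48 h. Against control CFL1 was -0.35 at 48 h (mean) and 0.95 at 24 h (largest range). EZR became 0.70 and 1.11 for control minus untransfected at 24 h, 2.14 and 3.55 at 48 h, and -0.29 and -0.69 for mir-429 minus control at 24 h. WASL became 0.77 and 1.95 for control and 1.05 and 2.33 for mir-429 minus untransfected at 48 h. RDX became 0.52 and 1.26 for mir-429 minus untransfected at 48 h. These turned values of CFL1, EZR, WASL and RDX had a limma adjusted p under 0.05, except EZR for mir-429 minus control at 24 h (0.433 and 0.258). With the mean, WIPF1 became 0.080 for control minus untransfected at 48 h. With the largest range, CFL2 became 0.23 for control minus untransfected at 24 h, EZR -0.032 for the average effect, RDX 0.11 for control at 48 h and 0.14 for mir-429 at 24 h minus untransfected, and the WASL change from 24 to 48 h became 0.13. With the 3′ to 5′ covariate, CFL1 probe set 1555730_a_at became -0.020 at 24 h, WASF3 1.08 for mir-429 and WIPF1 0.21 for control minus untransfected at 48 h; the covariate there nearly coincides with time.

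Counts of genes called moved as follows. The covariate gave 614 at 24 h, 2 and 792 for the changes from 24 to 48 h and from 48 to 144 h, 2118, 76 and 18 for control minus untransfected at 24, 48 and 144 h, 72 for mir-429 minus untransfected at 48 h, and 754 probe sets at 24 h. Array weights by the default algorithm, which stopped before converging, and gene by gene (chosen after seeing the data) gave 6205 and 5299 for mir-429 minus control at 24 h, 1681 and 1638 at 48 h and 2437 and 2249 at 144 h. For control minus untransfected they gave 8257 and 7353 at 24 h and 4006 and 3533 at 144 h, and for mir-429 minus untransfected 6179 and 6059 at 24 h and 5185 and 5055 at 144 h. For probe sets they gave 2879 and 2611 at 48 h and 4943 and 4060 at 144 h, gene by gene weights 11465 at 24 h, and default weights 1110 for the change from 24 to 48 h. That change also had 951 with trend and robust, 310 with the mean, 271 with the largest range, 263 without filter and 58 with only the arrays compared; the next change had 793 with the largest range. For control minus untransfected at 144 h the counts were 105, 36, 36, 39 and 664 with trend and robust, the mean, the largest range, no filter and only the arrays compared. With only the arrays compared, 916 genes were called at 48 h, and 2975 and 1165 probe sets at 24 and 48 h. Without the 48 h arrays, 1160 genes and 1969 probe sets were called at 144 h, and without filter 753 probe sets.

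Leaving out 1 array gave 165 to 1973 for the change from 24 to 48 h (630 with all arrays; 166 without control 24 h replicate 3 and 165 without mir-429 24 h replicate 1), 25 to 62 for control minus untransfected at 144 h (61 with all), 326 to 659 at 144 h (754 with all), 2148 to 4033 at 24 h (3425 with all; 2148 and 2249 without the same 2 arrays), and 1272 to 1822 for mir-429 minus untransfected at 144 h (2434 with all). For probe sets it gave 3005 to 7695 at 24 h and 475 to 1158 at 144 h. Scaling moved the split of calls: at 144 h 191 genes were higher and 563 lower as deposited, 321 and 408 after cyclic loess, and 257 and 437 after quantile scaling. Probe sets read fixed parts of a gene, and 3 arrays per group limit what could be called.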
